A study of Rattus norvegicus with 8 samples.

Results

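Genes of fatty acid oxidation and ketone metabolism were compared between rat oligodendrocyte progenitor cell (OPC) cultures treated with IL-4 and cultures treated with PBS. The 43 genes were taken from a list of enzymes, carriers and regulators ordered by step of the pathway. A gene was followed through the probe set that the array's annotation gives to its symbol alone, and all 43 had 1 such probe set, out of 23188 probe sets and 15037 gene symbols on the array. Cultures came from the brains of postnatal day 1-2 Sprague Dawley rat pups of both sexes, with OPCs separated from other brain cells by their attachment. The IL-4 group was 4 cultures that received IL-4 (20 ng/mL) over 3 d, and the PBS group was 4 cultures that received PBS over the same time. No genetic change is named for either group, and both shared a defined medium without serum that holds insulin, hydrocortisone and biotin. The paper maintained OPCs in this medium with the growth factors PDGF and bFGF, after earlier growth of the mixed cells in serum. RNA of each culture was hybridised to 1 Affymetrix Clariom S rat array, and the values are log2 signals after RMA, so that a difference of 1 is a 2-fold change. The study names 4 biologic replicates per condition, and the array medians lay between 6.13 and 6.16. An array has no read depth, so the number of arrays limits the precision.

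Fatty acids are burned in a chain of steps. An acyl-CoA synthetase activates the fatty acid, the carnitine shuttle carries long chains through the mitochondrial membranes, and a cycle of dehydrogenases, hydratases and thiolases removes acetyl-CoA units while passing electrons to the respiratory chain. Peroxisomes shorten very long and branched chains first. Ketone bodies, made in liver, are turned back to acetyl-CoA in brain, where oligodendrocytes use them for energy and for the lipids of myelin. PPARs, the nuclear receptors of fatty acids, switch on many of these genes with the coactivators PGC-1alpha and PGC-1beta.

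The 4 IL-4 arrays were more alike than the 4 PBS arrays. Correlations between arrays ran from 0.9958 to 0.9967 in the IL-4 group and from 0.9905 to 0.9945 in the PBS group. The same value to 2 decimals stood on at least 3 of the 4 arrays for 941 probe sets (4.06%) in the IL-4 group and for 23 (0.0992%) in the PBS group. Among the 43 genes, 5 had such repeated values with IL-4 (Cpt1c, Ehhadh, Abcd3, Oxct1 and Ucp2) and none with PBS. The SD was larger with PBS for 34 of the 43 genes (79.1%) and for 67.6% of all probe sets. Where the IL-4 arrays were averaged and counted as 1 sample, an alternative added after the values were seen, the differences kept their size. The adjusted test by limma then lost nearly all calls over the array, all those of the 43 genes included. It thus says little about these genes in particular.

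A low signal on an array can be background, so the 95th percentile of the mean signal of 1057 olfactory receptor genes, which act mainly in the nose, was taken as a limit for dim genes, at 5.41. All 8 OPC marker genes examined lay above it. So did all 9 myelin genes. Of 12 microglial and macrophage genes, the mean of Tmem119 was under it with both treatments and that of Itgam with IL-4 (4.63, against 5.78 with PBS). Values are of RNA from whole cultures, in which fewer cells of a type and less RNA per cell cannot be told apart. The mean of the 9 myelin genes lay between 15.66 and 15.79 with IL-4, and with PBS between 14.22 (array 1) and 15.63 (array 2). The mean of the 12 microglial and macrophage genes lay between 8.99 and 9.10 with IL-4 and between 8.33 and 9.86 with PBS, with the highest on PBS array 4. Neuronal genes averaged 7.57 to 7.70 with IL-4 and 7.64 to 8.27 with PBS, highest on PBS array 1.

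With IL-4, a few of the genes rose and a larger number fell. Cpt1a, the gate of mitochondrial import, and Ucp2, a carrier of the inner mitochondrial membrane, rose 8.68-fold and 6.43-fold, and the coactivator genes Ppargc1a and Ppargc1b and the dienoyl-CoA reductase Decr1 rose less. By limma, at an adjusted p under 0.05 over all probe sets, the rises numbered 5 of the 43 genes (11.6%) and the falls 15 (34.9%), and the other 23 missed the threshold. Among all probe sets, 12% rose and 19.7% fell. At more than 2-fold, 3 of the 43 rose (Cpt1a, Ucp2 and Ppargc1a) and 2 fell (Acadsb and Bdh1), against 2.16% higher and 2.34% lower among all probe sets. At an adjusted p under 0.05 alone, the share of genes that rose was thus near the background, and the share that fell was above it. At more than 2-fold both shares were above the background, but they rest on 3 and 2 genes. The median log2 difference of the 43 genes was -0.09, against -0.07 over all probe sets. With 1 array left out at a time it ran from -0.18 (without PBS array 2) to -0.11. IL-4 and PBS arrays did not overlap for 20 genes, with 6 higher and 14 lower with IL-4, against 12.2% and 20.6% of all probe sets.

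**Figure D1:**
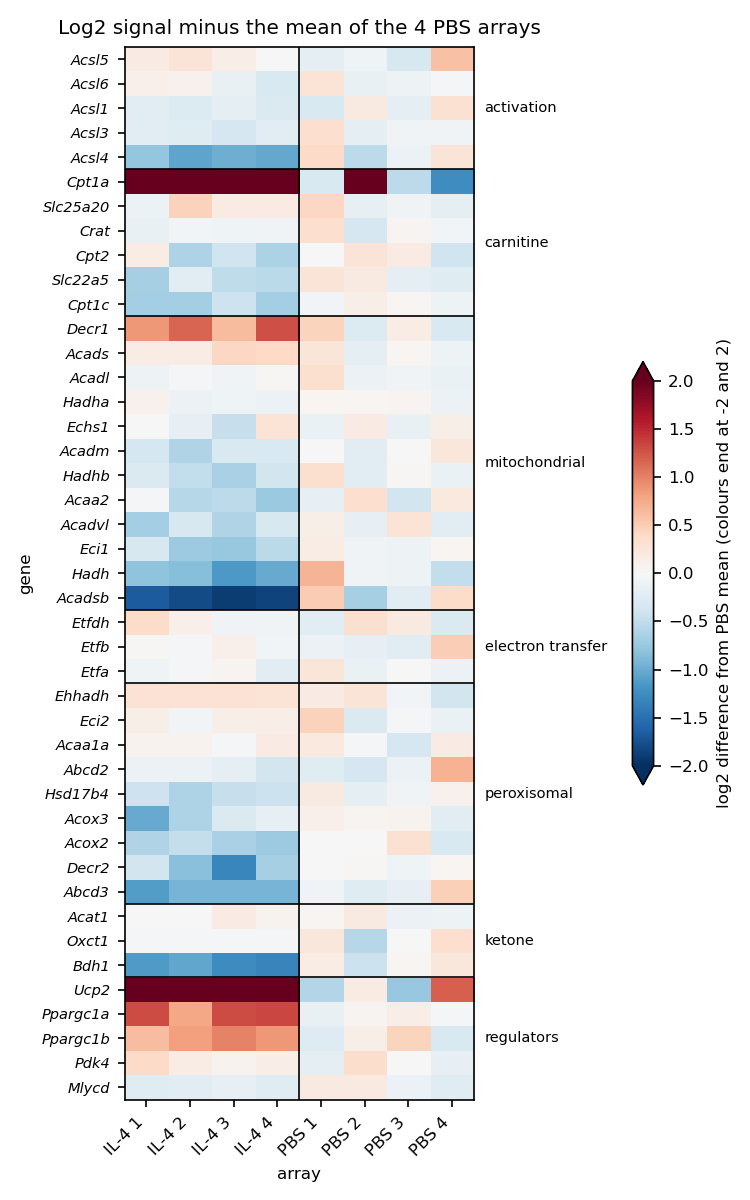
Log2 signal of the 43 genes (rows, by step) on the 4 IL-4 and 4 PBS arrays (columns), each minus the gene's mean on the PBS arrays. Red is higher and blue lower than the PBS mean, with the colours ending at differences of -2 and 2. Cpt1a and Ucp2 are red across the IL-4 arrays, and Acadsb, Bdh1, Hadh and Abcd3 are blue there. Cpt1a is also high on PBS array 2, at 10.56.

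The means of Eci1, Acox2 and Pdk4 were under the limit for dim genes with both treatments, and their fold changes are not read. The mean of Ppargc1b was under it with PBS, and that of Decr2 with IL-4. Of the 39 genes whose mean over all arrays was above the limit, 4 rose and 13 fell, against 11.9% and 22.4% of the 13459 probe sets above it.

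**Figure D2:**
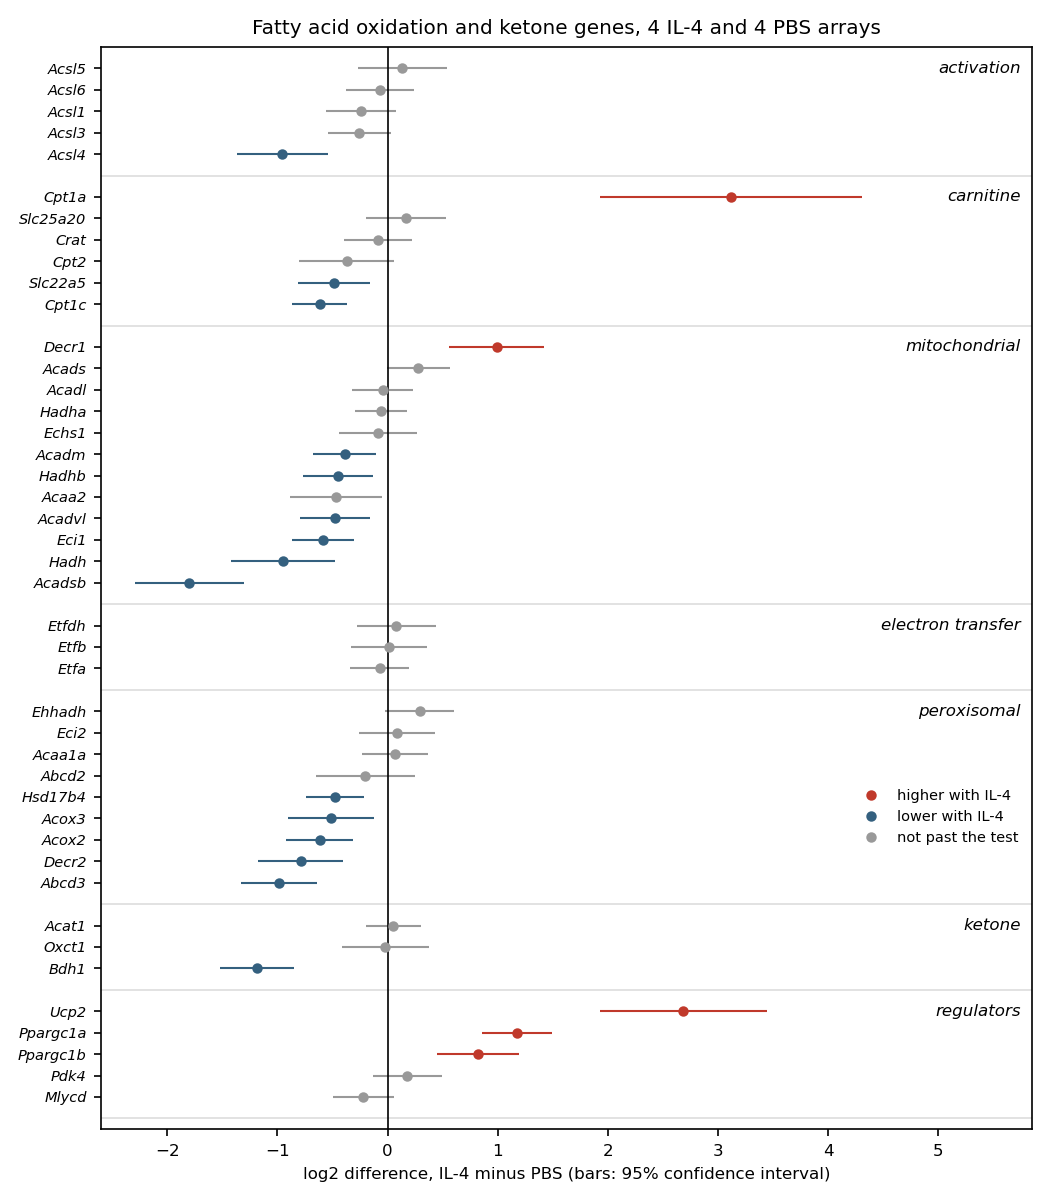
Log2 difference, IL-4 minus PBS, of each of the 43 genes by step of the pathway (points), with its 95% confidence interval from limma (bars). Red points rose and blue points fell at an adjusted p under 0.05, and grey points did not pass. The 5 red points are Cpt1a, Decr1, Ucp2, Ppargc1a and Ppargc1b, and no electron transfer gene passed.

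Among the regulators, 3 of 5 genes rose and none fell. Ppargc1a encodes PGC-1alpha, a coactivator of PPARs and other nuclear receptors that drives genes of mitochondria and fatty acid oxidation. Its log2 signal was 6.97, 6.44, 6.97 and 7.01 on the IL-4 arrays, against 5.52, 5.72, 5.80 and 5.65 on the PBS arrays. The groups did not overlap, and IL-4 array 2 was the lowest of its group. The difference was 1.18 ± 0.15 (SE, n = 4 each), or 2.26-fold with a 95% confidence interval of 1.81 to 2.82 (adjusted p = 0.000358). Ppargc1b, which encodes the related coactivator PGC-1beta, read 5.42, 5.62, 5.79 and 5.67 with IL-4 and 4.55, 4.92, 5.24 and 4.50 with PBS. All IL-4 arrays were above all PBS arrays, by 0.82 ± 0.17 (adjusted p = 0.00482), though the PBS mean of 4.80 lay under the limit for dim genes, so the size of this rise cannot be read exactly.

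Ucp2 belongs to the uncoupling protein family of mitochondrial carriers and is abundant in macrophages and microglia as well as in other brain cells. It read 14.32, 14.32, 14.32 and 14.39 on the IL-4 arrays, against 11.06, 11.81, 10.89 and 12.85 on the PBS arrays. The IL-4 arrays were all higher and nearly equal, and PBS array 4 stood above the other PBS arrays. The difference was 2.69 ± 0.35, or 6.43-fold with an interval of 3.80 to 10.9 (adjusted p = 0.000417). PBS array 4 also had the highest mean of the microglial and macrophage genes, at 9.86. Csf1r, the receptor that microglia need to live, read 10.90, 11.05, 11.10 and 10.94 with IL-4 and 9.60, 8.88, 8.98 and 10.96 with PBS. The complement gene C1qb rose by 1.96 on the log2 scale and C1qa by 1.69, while Cx3cr1 fell by 1.46. Tmem119, dim with both treatments, passed as lower. Trem2 and Itgam differed by -1.35 and -1.15 and did not pass. Of the 12 microglial and macrophage genes 5 rose (41.7%) and 2 fell (16.7%), beside 12% and 19.7% of all probe sets. These genes had 6 differences above 0 and 6 below, with a median of 0.18. Their part in the Ucp2 difference was not tested. Without PBS arrays 1 and 4, an alternative added after the values were seen, the Ucp2 difference was 2.99 (adjusted p = 0.000243).

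Pdk4, which shuts off pyruvate oxidation when fat is burned, and Mlycd, which removes the Cpt1 inhibitor malonyl-CoA, did not pass. Pdk4 was dim with both treatments, at 4.03 to 4.34 on the IL-4 arrays and 3.78 to 4.31 on the PBS arrays. Mlycd averaged 6.60 ± 0.04 with IL-4 and 6.82 ± 0.21 with PBS (SD, n = 4 each), a difference of -0.22 with a 95% confidence interval of -0.49 to 0.05.

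**Figure D3:**
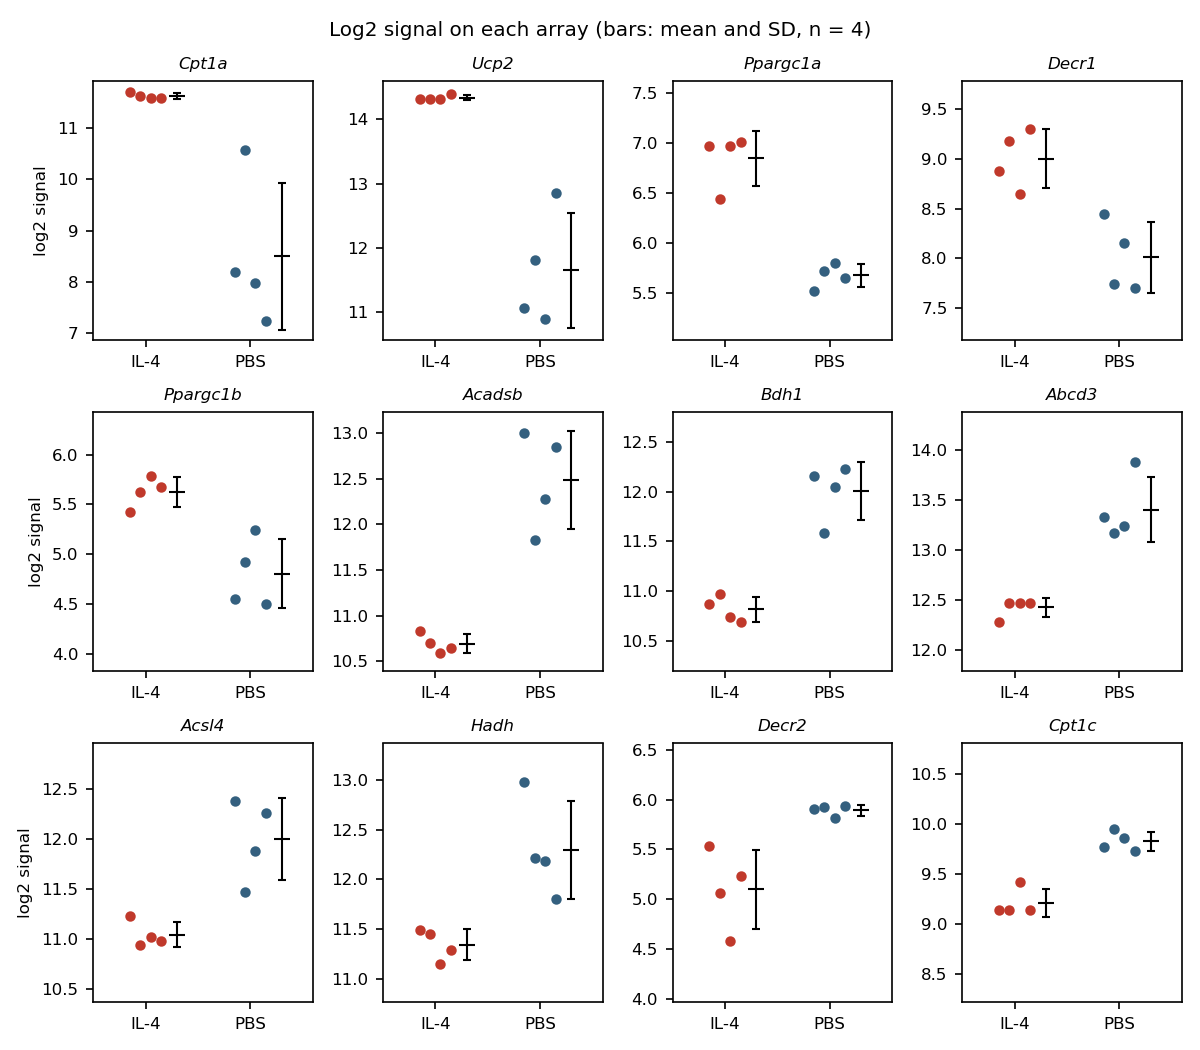
Log2 signal of 12 genes on each of the 4 IL-4 arrays (red, left in each panel) and 4 PBS arrays (blue, right), with the mean and SD of each group (black). The vertical axes differ between panels and do not start at 0. No IL-4 point overlaps the PBS points in these panels, and the PBS points of Cpt1a run from 7.25 to 10.56.

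The promoters of the genes, 250 bases before to 50 after the start, were read from RefSeq for 39 of the 43 genes. The DR1 element, to which PPARs bind with their RXR partner, is a direct repeat of AGGTCA with a 1-base spacer. With up to 2 mismatches over its 12 set bases and on either strand, it was found in 5 of 39 promoters (12.8%), against 3.71% of all 27457 promoters and 3.07% of the 12435 promoters of genes on the array. The 5 were those of Slc25a20, Crat, Acadvl, Echs1 and Etfa. Acadvl fell and the other 4 did not pass the test. Of the genes that rose, Cpt1a, Ucp2, Ppargc1a and Ppargc1b held no such match in this window, and Decr1 had no promoter to read. A single exact AGGTCA, which can lie within a DR1 match as it does in Acadvl, stood in 7 of 39 (17.9%), against 15.7% of all promoters and 13.3% of those of genes on the array. The cAMP response element TGACGTCA, a palindrome chosen after the values were seen, stood in those of Acadm, Acox3 and Ppargc1a, 3 of 39 (7.69%), against 1.91% of all promoters and 2.56% of those of genes on the array. A match of letters is a description and not a site of binding. The following sequences show the promoter of Ppargc1a, one of the coactivator genes that rose, and those of Acadm and Acadvl, which encode dehydrogenases that fell, 5′ to 3′ on the strand of the gene, in the GRCr8 build. Capitals mark the TGACGTCA match in Ppargc1a (chr14:63634058-63634357, + strand) and Acadm (chr2:245542815-245543114, - strand), and in Acadvl (chr10:55236656-55236955, - strand) the DR1 match, which has 1 mismatch and begins 17 bases before the start.
Ppargc1a: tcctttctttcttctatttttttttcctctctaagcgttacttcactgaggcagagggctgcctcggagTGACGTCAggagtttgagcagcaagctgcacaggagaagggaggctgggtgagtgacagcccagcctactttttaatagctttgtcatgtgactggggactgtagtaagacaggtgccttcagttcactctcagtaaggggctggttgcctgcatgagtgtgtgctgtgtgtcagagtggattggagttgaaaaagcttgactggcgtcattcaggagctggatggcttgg
Acadm: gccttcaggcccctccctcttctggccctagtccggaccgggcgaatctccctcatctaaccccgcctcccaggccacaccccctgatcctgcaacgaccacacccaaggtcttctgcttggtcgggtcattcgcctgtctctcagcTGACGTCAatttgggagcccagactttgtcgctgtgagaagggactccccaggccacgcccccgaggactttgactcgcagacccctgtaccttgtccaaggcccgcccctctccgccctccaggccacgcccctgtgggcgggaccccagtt
Acadvl: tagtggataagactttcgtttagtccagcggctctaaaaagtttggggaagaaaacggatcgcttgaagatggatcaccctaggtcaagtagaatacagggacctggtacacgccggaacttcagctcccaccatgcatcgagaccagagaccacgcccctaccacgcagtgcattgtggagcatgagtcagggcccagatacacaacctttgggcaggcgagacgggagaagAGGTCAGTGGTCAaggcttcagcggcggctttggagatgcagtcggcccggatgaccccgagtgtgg

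Activation of long-chain fatty acids is done by the acyl-CoA synthetases of the Acsl family. Of the 5 measured 1 fell (20.0%, beside 19.7% of all probe sets). Acsl4, which prefers arachidonic acid and other polyunsaturated fatty acids, read 11.23, 10.94, 11.02 and 10.98 on the IL-4 arrays, against 12.38, 11.47, 11.88 and 12.26 on the PBS arrays. The IL-4 arrays were all lower, by 0.95 on average (SE 0.19), and the level was 1.94-fold lower with an interval of 1.46 to 2.58 (adjusted p = 0.00358). Acsl3, a synthetase of the endoplasmic reticulum and lipid droplets, did not pass, although its IL-4 arrays (17.00 to 17.11) all lay below its PBS arrays (17.15 to 17.68). The differences of Acsl1, Acsl5 and Acsl6, the last a synthetase of the brain, were -0.24, 0.14 and -0.07, and none passed. The widest interval among these 4 genes that did not pass was that of Acsl5, from -0.26 to 0.53.

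The carnitine shuttle held the largest rise among the 43 genes. Cpt1a encodes carnitine palmitoyltransferase 1A of the outer mitochondrial membrane, the rate-limiting and malonyl-CoA-sensitive step of long-chain fatty acid oxidation. It read 11.70, 11.61, 11.58 and 11.57 on the IL-4 arrays, against 8.20, 10.56, 7.98 and 7.25 on the PBS arrays. The IL-4 arrays were nearly equal and all higher, while PBS array 2 stood well above the other PBS arrays. The difference was 3.12 ± 0.54, or 8.68-fold with an interval of 3.80 to 19.8 (adjusted p = 0.00198). Without PBS array 2 it was 3.81, or 14.0-fold. Without PBS arrays 1 and 4, it was 2.35, or 5.08-fold (adjusted p = 0.0201).

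PBS array 2, the highest PBS array in Cpt1a, was also the highest of the PBS arrays in the mean of the myelin genes. Mal, a proteolipid of compact myelin, read 10.85, 11.04, 10.85 and 10.99 with IL-4 and 4.99, 9.30, 7.37 and 8.83 with PBS, and Ermn, a cytoskeletal gene of late oligodendrocytes, read 12.41, 12.74, 12.66 and 12.49 with IL-4 and 8.50, 11.33, 9.92 and 10.86 with PBS. Both were highest among the PBS arrays on array 2 and lowest on array 1, while Cpt1a was lowest on array 4. Mog and Mobp, which encode further myelin proteins, rose by 1.02 and 0.73. Of the 9 myelin genes 5 rose (55.6%, beside 12% of all probe sets) and none fell. Of the 8 OPC markers 2 fell (25.0%, beside 19.7% of all probe sets), Sox10 by 0.46 and Nkx2-2 by 0.84. None passed as higher, though 5 of the 8 differences were above 0, and the median was 0.12. Their part in the Cpt1a difference was not tested.

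**Figure D4:**
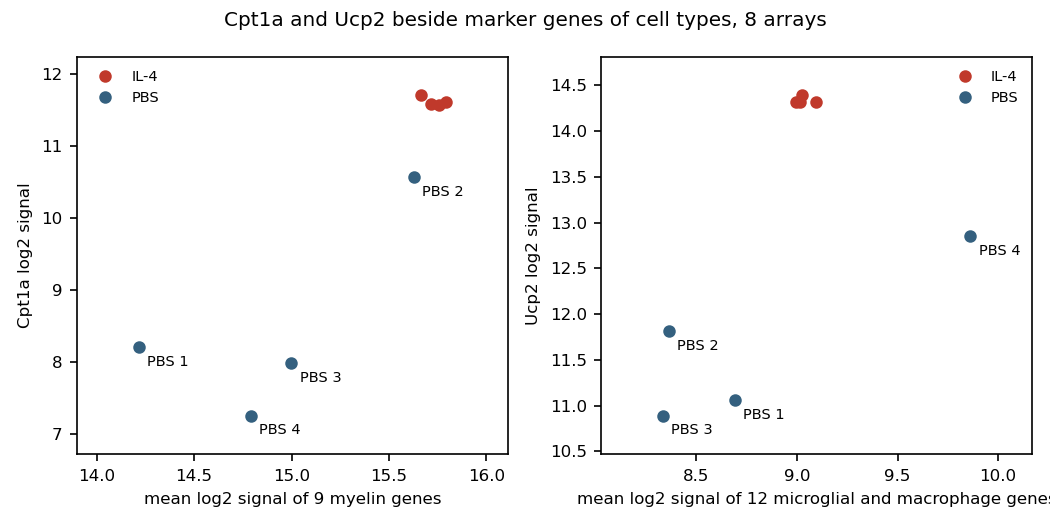
Left, log2 signal of Cpt1a against the mean log2 signal of 9 myelin genes, and right, that of Ucp2 against the mean of 12 microglial and macrophage genes, on 4 IL-4 arrays (red) and 4 PBS arrays (blue, named). PBS array 2 has the highest Cpt1a and myelin values of the PBS arrays, and PBS array 4 the highest Ucp2 and microglial values. The IL-4 arrays lie above the PBS arrays in Cpt1a and Ucp2.

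Cpt1c moved the other way. It encodes a brain form of the enzyme, found in the endoplasmic reticulum of neurons and with little transferase activity. It read 9.14, 9.14, 9.42 and 9.14 with IL-4, against 9.77, 9.95, 9.86 and 9.73 with PBS, a fall of 0.62 on the log2 scale (SE 0.11, adjusted p = 0.00274) with no overlap. The mean of the neuronal genes was highest on PBS array 1 (8.27), while Cpt1c was highest on PBS array 2, where that mean was 7.67. The part of neurons in the Cpt1c difference was not tested. The muscle form Cpt1b, not among the 43 genes, lay near the limit for dim genes, at 4.87 to 5.63 with IL-4 and 5.19 to 5.45 with PBS, and did not pass. Slc22a5, the carnitine transporter of the plasma membrane, fell by 0.49 (adjusted p = 0.0301), with IL-4 arrays of 5.56 to 6.0 and PBS arrays of 5.98 to 6.48 that overlap. Its fall did not pass without 5 of the 8 arrays, left out in turn. The inner membrane steps Cpt2 and Slc25a20 and the carnitine acetyltransferase Crat differed by -0.37, 0.17 and -0.09 and did not pass.

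Among 12 enzymes of mitochondrial beta-oxidation, 6 fell (50.0%), 1 rose (8.33%) and 5 did not pass, and 10 had a difference below 0. Among all probe sets 19.7% fell and 12% rose. Acadsb, the dehydrogenase of short and branched chains that also acts in isoleucine breakdown, had the largest fall of the 43 genes. It read 10.83, 10.70, 10.59 and 10.64 on the IL-4 arrays, against 13.00, 11.83, 12.28 and 12.85 on the PBS arrays. The groups were apart, and the level was 3.48-fold lower with IL-4, with an interval of 2.47 to 4.91 (difference -1.80 ± 0.22, adjusted p = 0.000369). Hadh, the 3-hydroxyacyl-CoA dehydrogenase of medium and short chains, read 11.49, 11.45, 11.15 and 11.29 with IL-4 and 12.98, 12.22, 12.19 and 11.80 with PBS. It was 1.94-fold lower with IL-4, with no overlap (difference -0.95 ± 0.21, adjusted p = 0.00735).

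The dehydrogenases that open each turn of the cycle differ in the chain length they take. Very long-chain Acadvl fell by 0.48, medium-chain Acadm fell by 0.39, and long-chain Acadl and short-chain Acads differed by -0.04 and 0.28 and did not pass. Acadvl read 8.01 to 8.37 with IL-4 and 8.46 to 8.95 with PBS, and Acadm 7.11 to 7.41 with IL-4 and 7.48 to 7.94 with PBS, without overlap. These falls were near the threshold (adjusted p = 0.0292 and 0.0405), and Acadvl did not pass without 4 of the 8 arrays in turn, and Acadm without 7. The trifunctional protein, which does the later steps for long chains, has an alpha chain from Hadha and a beta chain from Hadhb. Hadha, at 13.37 ± 0.10 with IL-4 and 13.44 ± 0.08 with PBS (SD, n = 4 each), did not pass. Hadhb fell by 0.45 (adjusted p = 0.0343), with 11.00 to 11.37 on the IL-4 arrays and 11.44 to 11.98 on the PBS arrays, and this fall did not pass without 5 of the 8 arrays in turn. Whether the chains differed from each other was not tested. Acaa2, the thiolase that ends the cycle, differed by -0.47 (adjusted p = 0.0804), and the hydratase Echs1 by -0.09, and neither passed.

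Unsaturated fatty acids need further enzymes, an isomerase and a dienoyl-CoA reductase. Decr1, the mitochondrial reductase, rose. It read 8.88, 9.18, 8.65 and 9.30 with IL-4, against 8.45, 7.74, 8.16 and 7.70 with PBS, a difference of 0.99 ± 0.20, or 1.99-fold with an interval of 1.47 to 2.68 (adjusted p = 0.00396). The groups did not overlap, and this was the 1 mitochondrial enzyme of the 12 that rose. The isomerase gene Eci1 was dim, with 4.86, 4.45, 4.42 and 4.64 on the IL-4 arrays and 5.32, 5.10, 5.07 and 5.22 on the PBS arrays, and passed as lower (adjusted p = 0.00653). Etfa and Etfb, the chains of the flavoprotein that takes electrons from the dehydrogenases, and Etfdh, which hands them to ubiquinone, differed by -0.07, 0.01 and 0.08. None passed, and the 95% confidence intervals of the 3 genes lay within -0.34 to 0.44.

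Among 9 peroxisomal genes, 5 fell (55.6%, beside 19.7% of all probe sets), none rose and 4 did not pass. Abcd3, the transporter of the peroxisomal membrane also known as PMP70, read 12.28, 12.47, 12.47 and 12.47 on the IL-4 arrays, against 13.33, 13.17, 13.24 and 13.88 on the PBS arrays. It was 1.98-fold lower with IL-4, with an interval of 1.55 to 2.51 and no overlap (difference -0.98 ± 0.16, adjusted p = 0.00129). Abcd2, a transporter of very long-chain fatty acids, differed by -0.20 and did not pass. Hsd17b4, the D-bifunctional enzyme, fell by 0.48 (adjusted p = 0.0114), with 11.59 to 11.79 on the IL-4 arrays and 12.01 to 12.39 on the PBS arrays. The L-bifunctional enzyme Ehhadh differed by 0.29 and did not pass, although its IL-4 arrays (8.26 to 8.28) all lay above its PBS arrays (7.61 to 8.25).

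Decr2, the peroxisomal dienoyl-CoA reductase, fell, where Decr1 in mitochondria rose. It read 5.53, 5.06, 4.58 and 5.23 with IL-4, against 5.90, 5.92, 5.81 and 5.93 with PBS, with no overlap and a difference of -0.79 ± 0.18 (adjusted p = 0.00712). Its IL-4 mean of 5.10 was under the limit for dim genes, so the size of the fall cannot be read exactly. Acox3, the oxidase of branched chains, read 7.71, 8.10, 8.42 and 8.54 with IL-4 and 8.81, 8.77, 8.78 and 8.48 with PBS. The groups overlapped, and its fall of 0.52 (adjusted p = 0.0454) did not pass without 5 of the 8 arrays in turn. Acox2, an oxidase of bile acid precursors, was dim, with 2.93, 3.05, 2.89 and 2.80 on the IL-4 arrays and 3.53, 3.53, 3.84 and 3.23 on the PBS arrays. It passed as lower (adjusted p = 0.00724), though all of these values lie under the limit for dim genes. The thiolase Acaa1a and the isomerase Eci2 differed by 0.07 and 0.08 and did not pass.

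Of the 3 genes of ketone use, 1 fell (33.3%, beside 19.7% of all probe sets). Bdh1 encodes the mitochondrial enzyme that interconverts 3-hydroxybutyrate and acetoacetate, the entry of ketone bodies in brain. It read 10.87, 10.97, 10.74 and 10.69 on the IL-4 arrays, against 12.16, 11.58, 12.05 and 12.23 on the PBS arrays. The groups were apart, and the level was 2.28-fold lower with IL-4, with an interval of 1.81 to 2.87 (difference -1.19 ± 0.15, adjusted p = 0.000408). Oxct1, which transfers CoA to acetoacetate and limits ketone use outside the liver, averaged 9.25 ± 0.01 with IL-4 and 9.27 ± 0.41 with PBS (SD, n = 4 each), and the thiolase Acat1 averaged 11.54 ± 0.08 with IL-4 and 11.49 ± 0.14 with PBS. Neither passed, with 95% confidence intervals of -0.42 to 0.37 for Oxct1 and -0.20 to 0.30 for Acat1.

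The median log2 difference was -0.48 for the 9 peroxisomal genes and -0.42 for the 12 of mitochondrial beta-oxidation. It was -0.31 for the peroxisomal and -0.32 for the mitochondrial genes after a further quantile normalization, and -0.34 and -0.39 without dim probe sets, so that no order of these steps is read. Together 11 of 21 mitochondrial and peroxisomal enzymes (52.4%) fell, beside 19.7% of all probe sets. The 21 were chosen with earlier results of these data known. The 11 include the dim Eci1 and Acox2. They also include Acadvl, Acadm, Hadhb and Acox3, which did not pass without 4, 7, 5 and 5 of the 8 arrays in turn. After the quantile normalization, which took the median of all probe sets to -0.01, the falls of Acadm, Acadvl, Acox3, Hadhb and Hsd17b4 no longer passed. Of all 23188 probe sets, 3582 then passed as lower, against 4563 before it.

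Other genes of the same steps were counted in the same way. Among 9 further mitochondrial enzymes of fatty acid and branched-chain acyl-CoA oxidation, 5 fell (55.6%), none rose and all 9 differences were below 0. Among all probe sets 19.7% fell and 12% rose. Pcca, a chain of propionyl-CoA carboxylase, fell by 0.91, the dienoyl-CoA isomerase Ech1 by 0.82, the isovaleryl-CoA dehydrogenase Ivd by 0.71 and Hsd17b10 by 0.63. Among 14 further peroxisomal genes, Ech1 again included, 7 fell (50.0%) and 1 rose (7.14%). Pex11a, which acts in peroxisome division, fell by 0.86, the phytanoyl-CoA hydroxylase Phyh by 0.82 and the 2-hydroxyacyl-CoA lyase Hacl1 by 0.73. The gene that rose was Acaa1b, named after its values were seen, with a difference of 0.64, and a near copy of Acaa1a, so that the signals of these genes may not be separate on an array.

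Of 14 further genes of uptake and activation, 2 rose (14.3%) and 3 fell (21.4%), near the 12% and 19.7% of all probe sets. The fatty acid-binding protein gene Fabp5 fell by 2.11, with 13.95, 14.12, 13.88 and 14.11 on the IL-4 arrays and 16.90, 14.96, 16.32 and 16.31 on the PBS arrays. The fatty acid transporter Slc27a4 rose by 0.93, and Fabp3, dim with PBS, by 0.76. Acsbg2, dim with both treatments, passed as lower. Of 6 further carnitine genes, 1 passed as lower (16.7%), the dim Slc22a4, and none rose. Of 7 further ketone genes, 1 rose and 1 fell (14.3% each, beside the same shares of all probe sets). Acat2, the cytosolic thiolase at the start of sterol synthesis, fell by 1.13, and the monocarboxylate carrier gene Slc16a6, dim with both treatments, passed as higher.

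Among 27 further regulators, 3 rose (11.1%) and 6 fell (22.2%), near the 12% and 19.7% of all probe sets. Pdk2, a kinase that inhibits pyruvate dehydrogenase, fell by 1.82 and read 9.76, 9.91, 9.75 and 9.91 with IL-4 and 11.99, 11.63, 11.72 and 11.26 with PBS. Plin2, a lipid droplet coat protein, rose by 1.18, and Angptl4, a secreted inhibitor of lipoprotein lipase, rose by 0.93. The groups overlapped in Angptl4, with 7.38 on PBS array 2 and 7.30 to 7.65 on the IL-4 arrays. Tfam, which maintains mitochondrial DNA, fell by 0.75. Of the PPAR genes, Pparg and Ppara were dim with both treatments and did not pass. Ppard was above the limit for dim genes and rose by 0.47 (adjusted p = 0.0257 by limma). All its IL-4 arrays lay above its PBS arrays.

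Among 30 genes of mitochondrial mass and the TCA cycle, 2 rose and 6 fell (20.0%), with a median of -0.08, beside the 19.7% lower and the median of -0.07 over all probe sets. Idh2, the mitochondrial NADP-dependent isocitrate dehydrogenase, rose by 0.92 and the outer membrane channel Vdac2 by 0.67, while Pdhb, a chain of pyruvate dehydrogenase, fell by 0.66. Of the markers of other cells, 3 of 9 astrocyte genes rose and 3 fell (33.3% each). Of 9 neuronal genes 2 rose and 2 fell (22.2% each). Of 8 endothelial and mural genes 1 rose (12.5%) and 4 passed as lower (50.0%), 6 of the 8 being dim with both treatments. Among all probe sets 12% rose and 19.7% fell. S100b rose by 2.39, Slc1a2 by 1.63 and Gfap by 1.05, and Slc1a3 fell by 1.03, while the neuronal genes Tubb3 and Syt1 fell by 2.09 and 1.76 and Map2 and Gad1 rose by 0.60 and 0.45. Pecam1, dim with PBS, rose by 1.85, and Pdgfrb, Col3a1 and Rgs5 were dim with both treatments. The part of these cells in the differences above was not tested.

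**Figure D5:**
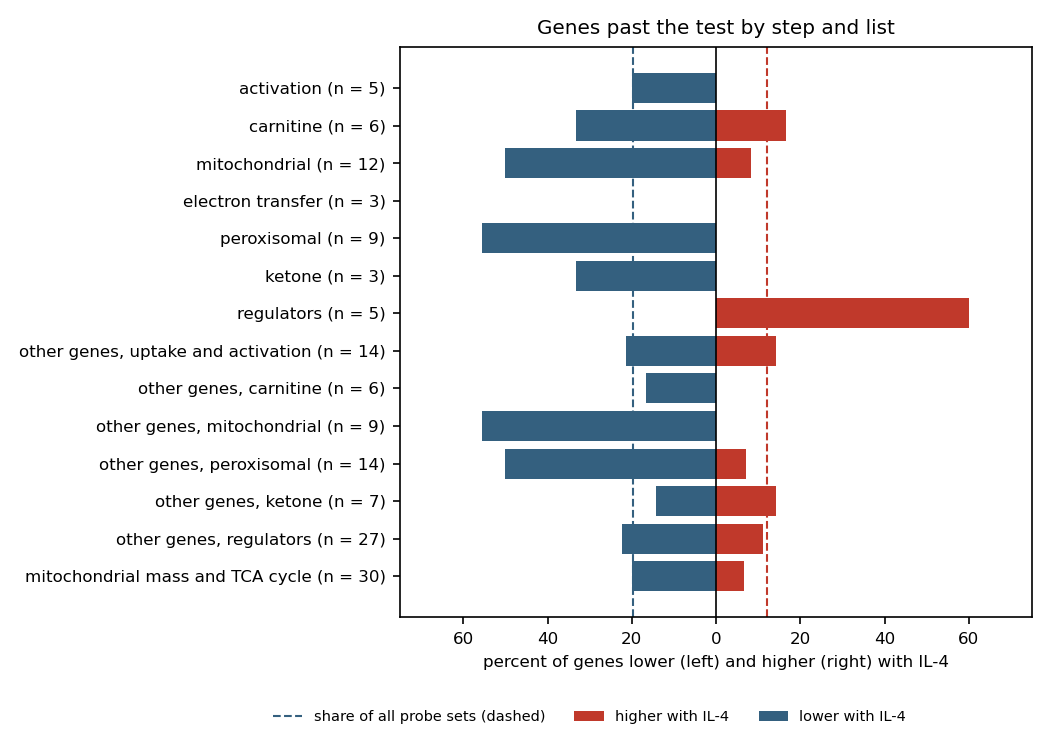
Percent of genes of each step and of each list of other genes that rose (red, right) or fell (blue, left) with IL-4, with the number of genes in brackets and the shares of all probe sets, 12% and 19.7%, as dashed lines. The blue side runs from 50.0% to 55.6% for the mitochondrial and peroxisomal steps and the lists of further genes of those steps, and to 20.0% for mitochondrial mass and the TCA cycle. The steps hold 3 to 12 genes each, so that 1 gene moves a bar by a large amount.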

How the data were processed

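Affymetrix Clariom S arrays for rat were used for RNA of 8 OPC cultures, 4 given IL-4 and 4 given PBS. The authors analysed the array images in Affymetrix Expression Console and deposited log2 values per probe set, which are RMA values after background correction, normalization between arrays and summarization, and they analysed them in Transcriptome Analysis Console 4.0. Raw probe signals were not used here. Probe sets were named where the array's annotation gives 1 symbol (15049 of 23188), while 8139 without a symbol stayed in the test.

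The difference IL-4 minus PBS was tested two-sided with lmFit and eBayes of limma (version 3.58.1, under R 4.3.3), and p was adjusted after Benjamini and Hochberg over the 23188 probe sets. The test was run first on simulated arrays. No set test was used. The 43 genes, the other lists and the cell type markers were chosen with earlier results of these data known. Values on every array are given for genes past the test with a difference of at least 0.5, and up to 4 genes of each other list are named, those with the largest difference at an adjusted p under 0.05. Where a list gene had several probe sets, the brightest on average was taken. Groups came from the treatment labels. The labels do not say whether the replicate numbers pair the samples, and the main fit did not pair them. Deviations of same-numbered arrays from their group means correlated between -0.02 and 0.01. This cannot exclude shared preparations, as the IL-4 arrays varied little around their mean.

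The alternatives were a further quantile normalization, subtraction of array medians, a filter at the 40th percentile of mean signal, an intensity trend with a robust prior, array weights, the methods' t-test, the replicate number as a block, the lowest-mean probe set and each array left out in turn. As all 43 genes had only 1 probe set, the lowest-mean probe set was that of the main fit. That alternative could not change a call and is no further check. Promoters are from RefSeq (GRCr8), of 39 genes, whereas the submitters' processing notes name rn6, so no coordinates of the array were used. Protein sequences were not analysed here. Python (3.11.15), matplotlib (3.10.9), numpy (2.4.6) and pandas (2.3.3) were used for the tables and plots.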

Additional observations from a re-analysis of the deposited data

Results flagged for a closer look

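In 13 of 86 groups of 4 arrays (43 genes, each with IL-4 and PBS), 1 array lay far from the other 3 by Dixon's ratio, of which chance gives about 1 in 20 groups. With IL-4, the lone value was the lowest for Acsl3 on array 3 (17.0), Acadm on array 2 (7.11), Abcd3 on array 1 (12.28), Ehhadh on array 4 (8.26), Eci2 on array 2 (8.07), Oxct1 on array 2 (9.23) and Ppargc1a on array 2 (6.44), and the highest for Cpt1c on array 3 (9.42) and Ucp2 on array 4 (14.39). Among these, Cpt1c, Abcd3, Ehhadh, Oxct1 and Ucp2 had the same value on the other 3 IL-4 arrays, so that even a gap of 0.02 stood out. With PBS, the lone value was the highest for Acadl on array 1 (11.36) and Etfb on array 4 (8.33), and the lowest for Hadha on array 4 (13.31) and Acox3 on array 4 (8.48).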

How the results depend on the processing

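The 5 rises (Cpt1a, Decr1, Ucp2, Ppargc1a and Ppargc1b) passed in every alternative that tested them, except where the IL-4 arrays were averaged. The filter on dim probe sets left out Ppargc1b, Eci1, Acox2 and Pdk4. Of the 15 falls, 9 passed in every alternative that tested them, with the same exception, and Slc22a5, Acadvl, Acadm, Hadhb, Acox3 and Hsd17b4 did not. No gene that passed turned its direction. With the IL-4 arrays averaged to 1 sample, 0 genes rose and 0 fell by limma, with a smallest adjusted p of 0.0812 (Ppargc1a), while 5 higher and 9 lower had an unadjusted p under 0.05. Without PBS replicates 1 and 4, 5 rose and 9 fell, beside 2542 higher and 4050 lower of all 23188 probe sets. In the main fit 2776 probe sets were higher and 4563 lower. Both of these alternatives were chosen after seeing the data. The count of falls was 10 after quantile normalization, beside 3582 of all probe sets, and 10 by the methods' t-test, beside 3708. Without each array in turn, 5 genes rose and 10 to 14 fell, beside 2103 to 2896 higher and 3478 to 4572 lower of all probe sets. The median of the 43 genes then ran from -0.18 (without PBS replicate 2) to -0.11. Acaa2 passed as lower without PBS replicate 3 or IL-4 replicate 1, and Cpt2 without IL-4 replicate 1. With the replicate number as a block, 5 rose and 13 fell, Acadvl and Acox3 no longer passing, beside 2527 higher and 4013 lower of all probe sets. With 4 arrays a group, small differences cannot be told from none, and dim genes give no size.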
